A study of Mus musculus with 16 samples.

Results

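The microRNA precursor genes are described here across 4 genotypes of the ceramide synthase gene CerS2 in mouse liver. They were chosen as every array row whose transcript identifier maps to a symbol made of Mir and a number, or of Mirlet, with the host genes whose symbols end in hg left out. That gave 989 microRNA genes with 1 probe each among 60037 probes. A microRNA gene was kept if 4 or more of the 16 arrays had its spot marked well above background by the scanner software, which left 272 microRNA genes among 31484 genes tested. Total liver RNA of male mice aged 6 weeks was hybridised to 1-colour expression arrays, 1 array per sample. The 4 conditions, with 4 samples each, are HA (labelled CerS2 H/A, read here as a histidine to alanine change in the catalytic site), delHox (labelled CerS2 Del), delneo (labelled CerS2 Flox) and WT (labelled CerS2 WT). All of them share a background of 75% C57BL/6 and 25% SV129. The labels do not say what the delHox and delneo alleles contain, nor whether each RNA came from a mouse of its own, so the p-values measure the spread between these samples. No named probe reads the CerS2 gene itself, so the genotypes could not be checked on the targeted transcript.

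A microRNA gene is transcribed into a long primary transcript, often from an intron of another gene. Drosha and Dgcr8 cut a hairpin out of it in the nucleus, Xpo5 exports the hairpin with Ran, Dicer1 cuts it again, and a short strand is loaded into an Argonaute protein. The loaded strand finds messenger RNAs mainly through its seed, the bases 2 to 8 from its 5′ end, and lowers their translation or stability. In liver, Mir122 makes the dominant hepatocyte microRNA, and the Mir26, Mir22 and Mir192 families are further well-known hepatocyte products.

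The probes were 39 to 58 bases long. For all 866 microRNA genes with a hairpin in the RefSeq table, 225 of them among the genes tested, the probe lay inside the hairpin in the sense direction. Only 376 of 854 probes with a mature sequence on file held a whole mature microRNA. A value here is therefore a signal from RNA that holds the hairpin, and hairpin, primary transcript and surrounding host transcript cannot be told apart. The hairpins below belong to genes that lead the comparisons. They are RefSeq sequences on GRCm38.p6, 5′ to 3′, with the stretch covered by the array probe in capitals.
Mir6516: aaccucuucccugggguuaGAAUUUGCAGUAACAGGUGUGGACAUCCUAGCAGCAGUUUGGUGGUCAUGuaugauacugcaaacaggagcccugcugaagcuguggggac
Mir3069: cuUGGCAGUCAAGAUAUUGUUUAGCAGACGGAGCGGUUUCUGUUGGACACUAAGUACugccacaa
Mir6921: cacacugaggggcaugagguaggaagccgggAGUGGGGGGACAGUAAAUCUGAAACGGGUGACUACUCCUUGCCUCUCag
Mir7677: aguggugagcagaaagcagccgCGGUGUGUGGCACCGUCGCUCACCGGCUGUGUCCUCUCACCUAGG
Mir680-1: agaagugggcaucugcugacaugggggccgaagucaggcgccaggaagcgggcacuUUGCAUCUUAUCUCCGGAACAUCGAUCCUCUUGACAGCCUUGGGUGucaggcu
Mir680-2: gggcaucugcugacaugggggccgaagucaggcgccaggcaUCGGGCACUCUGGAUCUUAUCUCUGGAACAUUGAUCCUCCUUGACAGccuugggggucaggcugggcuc
Mir682: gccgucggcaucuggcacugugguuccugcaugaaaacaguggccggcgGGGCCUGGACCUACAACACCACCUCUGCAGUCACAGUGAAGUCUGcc
Mir6516 lies at chr11:117077348-117077457 on the plus strand inside the lncRNA gene Snhg20, and Mir3069 at chr12:105031077-105031141 on the minus strand inside Snhg10. Mir6921 lies at chr11:60200538-60200617 on the minus strand inside Srebf1, and Mir7677 at chr17:27091245-27091311 on the plus strand inside Itpr3. Mir680-1 lies at chr6:129691535-129691643, Mir680-2 at chrX:144297790-144297899 and Mir682 at chr13:75645046-75645141, all on the plus strand. The probes of Mir680-1 and Mir680-2 share no run longer than 10 bases.

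The mature strands of the leading genes are given with the seed in capitals, to show which of them share one.
mmu-miR-6516-5p: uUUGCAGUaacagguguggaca
mmu-miR-3069-3p: uUGGACACuaaguacugccaca
mmu-miR-6921-5p: uGAGGGGCaugagguaggaagc
mmu-miR-7677-5p: aGUGGUGAgcagaaagcagccgcgg
mmu-miR-680: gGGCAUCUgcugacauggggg
mmu-miR-682: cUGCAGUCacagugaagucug
mmu-miR-26a-5p: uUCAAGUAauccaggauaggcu
Over 224 tested genes with mature sequences there were 345 distinct seeds, and 24 seeds occurred in more than 1 gene. Mir680-1 and Mir680-2 share the seed GGCAUCU with Mir680-3, and Mir26a-2 shares UCAAGUA with Mir26b. The 5p strand of Mir6921 has the seed GAGGGGC, which Mir423 also carries. Of the 2 mature sequences of Mir6516, the 5p strand lies wholly inside the probe.

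For 6 of 16 samples the scanner file listed with the sample came from another slide than the label names, and every column of the deposited values matched the file at the label's slide and position best, so the labels were followed. The 75th percentile of the unscaled signal was 109.6 to 173.6 in HA, 91.14 to 115.1 in delHox, 86.27 to 111.6 in delneo and 89.84 to 99.06 in WT samples, higher in HA than in WT throughout, and its part in the results was not tested. The summed signal of 6 hepatocyte markers, Alb and Apoa1 among them, was on the log2 scale 17.92 to 18.06 in HA, 17.92 to 18.06 in delHox, 17.89 to 17.98 in delneo and 17.91 to 18.01 in WT samples. Of 7 Kupffer cell and macrophage markers tested, 6 were called higher in HA against WT, and their summed log2 signal was 12.02 to 13.12 in HA, 11.80 to 12.12 in delHox, 10.83 to 11.32 in delneo and 10.50 to 11.44 in WT samples. In delHox 5 were called higher against WT, and 4 higher and 1 lower against delneo. Cd68 of that list was not tested. Of the other marker lists, HA against WT had 2 of 4 neutrophil markers higher and 1 of 4 erythroid markers lower, and 0 called of the lymphocyte, endothelial, stellate and cholangiocyte markers. In delHox against delneo 3 of 6 stellate cell markers, 1 of 4 neutrophil, 1 of 4 cholangiocyte and 1 of 6 hepatocyte markers were higher. The part of these cells in the microRNA results was not tested. In liver RNA, fewer cells of a type and less RNA per cell cannot be told apart.

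Most microRNA genes gave no measurable signal in these livers. Of the 989, 572 were well above background on 0 arrays, 145 on 1 to 3 arrays and 124 on all 16. The 27.5% that passed the filter compare with 62.99% of all probes. The 18 microRNA genes on exactly 4 arrays had mean log2 signals of 2.48 to 3.47, and the 15 on exactly 3 arrays, just outside, 2.04 to 3.42. The number of microRNA genes well above background was 215, 192, 198 and 272 in HA samples, 161, 209, 236 and 195 in delHox samples, 265, 201, 287 and 232 in delneo samples and 236, 226, 217 and 260 in WT samples. These ranges overlapped between the groups.

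**Figure D1:**
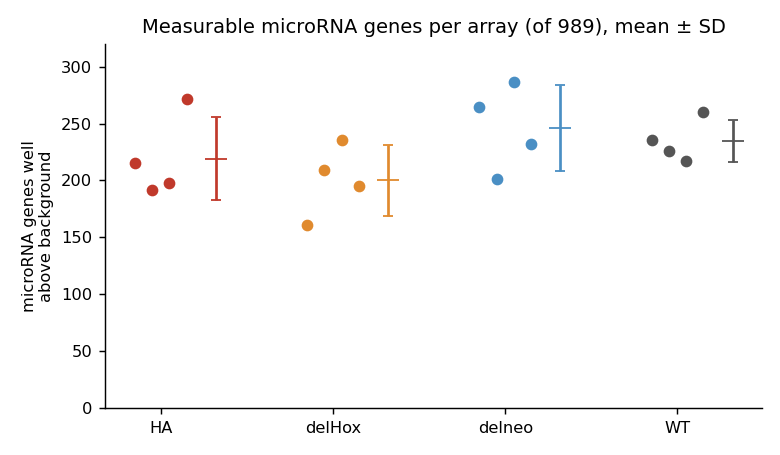
Number of the 989 microRNA genes that were well above background on each array (vertical axis, counts), by genotype. Points are arrays and bars are mean ± SD of 4 arrays. The lowest array is a delHox array with 161 genes and the highest a delneo array with 287, and the groups overlap.

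The microRNAs best known from liver biology were mostly below measurement on this array. Of 33 such genes, 26 were well above background on 0 arrays, among them Mir192, Mir34a, Mir802, Mir33 and Mir223, and 4 on 1 to 3 arrays. Mir122 passed on 5 arrays. It measured 2.43, 1.39, 3.73 and 4.19 in HA samples, 3.61, 3.43, 3.82 and 3.44 in delHox samples, 2.04, 4.42, 4.11 and 1.64 in delneo samples and 3.29, 4.75, 1.64 and 3.09 in WT samples (log2 signal). All 4 groups overlapped, and the log2 difference of HA from WT was -0.26 with a 95% interval of -1.79 to 1.28. The interval for delHox against delneo was -1.01 to 2.06, so changes of several fold either way would not have been detectable for Mir122. Mir22 and Mir18 passed on 6 and 16 arrays. Mir18, of the Mir17 to Mir92 cluster, differed by -0.30 in HA against WT (limma adjusted p = 0.344), and Mir22 by -0.31 (limma adjusted p = 0.587).

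In HA livers, 17 microRNA genes fell and 0 rose against WT. The fallers were led by Mir1948, Mir6516, Mir7035, Mir6402, Mir6921, Mir7037, Mir219a-1 and Mir1668, in the order of their fitted changes. Mir1948, Mir7035 and Mir6402 were well above background on 0 HA arrays, so the size of their fall was not measured and their place in the order is not settled. The share of microRNA genes that fell was 6.25%, against 2.97% of all genes tested, and 7.08% of all genes rose. Calls here are limma p-values below 0.05 after Benjamini-Hochberg adjustment across the 31484 genes. Called or not, 230 of 272 microRNA genes had a change below 0, 84.56% of them, against 57.84% of all genes. The median of the 272 was -0.29, against -0.10 over all genes. All 4 HA arrays lay below all 4 WT arrays for 42 microRNA genes, 15.44% of them, against 7.65% of all genes.

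Mir6516, inside the small nucleolar RNA host gene Snhg20, measured 8.89, 9.75, 8.05 and 9.47 in HA samples and 10.84, 9.95, 10.995 and 10.63 in WT samples (log2 signal). Every HA sample lay below every WT sample, with HA replicate 2 and WT replicate 2 close to each other. On the log2 scale the change was -1.57 ± 0.33 (SE, limma adjusted p = 0.00878). It was -1.50 within slide 1 and -1.35 within slide 2, with adjusted p of 0.309 and 0.145, and slide 2 holds 1 HA array, assumed to vary like the other groups.

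Mir6921 lies inside Srebf1, which encodes a regulator of fat synthesis and was not itself tested. It measured 4.44, 4.22, 4.46 and 4.43 in HA samples and 4.83, 5.74, 5.25 and 5.31 in WT samples. The HA samples were tightly grouped and all lay below WT, a log2 change of -0.90 ± 0.17 (SE, limma adjusted p = 0.00508), the smallest adjusted p among the microRNA genes of this comparison. With no scaling between arrays it was -0.46 (adjusted p = 0.137).

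Mir7035 measured 3.38, 3.46, 3.25 and 2.67 in HA samples and 3.60, 4.60, 4.25 and 4.94 in WT samples, and was not well above background on any HA array. The groups did not overlap. HA was at least 1.908-fold lower than WT, counted against the dimmest signal well above background on each array (limma adjusted p = 0.0165 for the fitted change). Such bounds start from the mean of all 4 arrays of the brighter group. They are approximate where some of those arrays were dim, as here, with 3 WT arrays well above background. No fold is given where only 2 were. The host of Mir7035, Rasa4, a Ras GTPase activator, rose in the same samples by 1.69 (adjusted p = 0.000102). Without HA replicate 4 or WT replicate 4, Mir7035 was no longer called.

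Mir7037, inside the Integrator subunit gene Ints1, measured 3.92, 3.82, 3.70 and 4.57 in HA samples and 4.68, 4.48, 5.07 and 5.03 in WT samples. HA replicate 4 overlapped with WT, and the log2 change was -0.81 ± 0.19 (SE, limma adjusted p = 0.0149). The call was lost without HA replicate 2 or 3 or WT replicate 3 or 4. In delHox against WT it fell by 0.67 (limma adjusted p = 0.0298), a call lost without any of 5 samples and with the trend with probe GC content removed. Ints1 itself rose by 0.55 in HA against WT (adjusted p = 0.0292).

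Mir1948 lies within the span of Ttc39c, on a strand that the tables used here do not give, as for Mir1949 in Snhg4 and Mir3069 in Scarna13. It measured 1.24, 1.29, 2.89 and 1.69 in HA samples, 1.29, 1.34, 2.17 and 2.87 in delHox samples, 1.24, 3.11, 3.54 and 2.18 in delneo samples and 4.13, 2.75, 3.98 and 3.91 in WT samples. It was well above background on 0 HA, 0 delHox, 1 delneo and 3 WT arrays, and HA overlapped with WT through HA replicate 3 and WT replicate 2. Counted from the mean of all 4 WT arrays, HA was at least 1.211-fold lower than WT (limma adjusted p = 0.0291). In the same way delHox was at least 1.092-fold lower (limma adjusted p = 0.0327). Each call was lost on leaving out any of 6 samples. Ttc39c changed with it, by -1.70 in HA against WT and by -1.90 in delHox against WT (adjusted p = 0.0103 and 0.00354).

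The count of 17 depended on single samples. It was 53 without WT replicate 2, of which 51 fell, and 6 without WT replicate 3 or without WT replicate 4. Without HA replicate 2, 3 or 4 it was 7, 8 or 9, and without delHox replicate 3, which only lends its spread, it was 29. With no scaling between arrays, 8 microRNA genes were called higher and 2 lower, and the median of all genes moved to 0.37, against 0.15 for the microRNA genes. The median of the microRNA genes lay below that of all genes in both cases. With normexp background correction it was -0.091, against -0.035. Without the filter on dim probes it lay above, at -0.01 over 989 microRNA genes, against -0.039. That setting gave -0.003 against -0.044 in delHox against WT, and -0.001 against -0.04 in delHox against delneo. The count over all genes moved with single samples too, from 3166 to 8021 without WT replicate 2 and to 1450 without WT replicate 4.

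In delHox livers, 11 microRNA genes fell and 1 rose against WT. The falls were led by Mir6516, Mir26a-2, Mir1948, Mir1949, Mir7677, Mir6339, Mir7037 and Mir219a-1, and the rise was Mir682. The 4.04% of microRNA genes that fell compare with 4.38% of all genes, which is near the background, and 0.368% rose, against 8.85% of all genes. The median change was -0.27, against -0.11 over all genes. Of the 272 changes 224 were below 0, 82.35% of them, against 58.75% of all genes. The groups did not overlap, with delHox below, for 17 microRNA genes, 6.25% of them, against 7.24% of all genes.

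Against delneo, 60 microRNA genes fell in delHox livers and 2 rose. The falls were led by Mir6516, Mir680-1, Mir7672, Mir1949, Mir669e, Mir7677, Mir3069 and Mir680-2, and the rises were Mir504 and Mir682. The 22.06% that fell compare with 18.2% of all genes, and the 0.735% that rose with 16.6%. The median was -0.32, against -0.14 over all genes. All delHox arrays lay below all delneo arrays for 55 microRNA genes, 20.22% of them, against 17.6% of all genes. The delHox samples are shared by both comparisons, so their changes are given side by side.

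Mir6516 measured 8.32, 8.49, 7.54 and 8.60 in delHox samples and 11.22, 11.21, 10.87 and 10.82 in delneo samples (log2 signal). All delHox samples lay below all delneo samples and below all WT samples, with wide gaps. It fell with a log2 change of -2.79 ± 0.33 against delneo (limma adjusted p = 9.99e-05) and -2.37 ± 0.33 against WT (limma adjusted p = 0.000341). Against delneo it was -2.89 within slide 1, which holds 1 delHox array (adjusted p = 0.118), and -2.64 within slide 2 (adjusted p = 0.00288). The call held without any single sample, with changes of -2.91 to -2.56. Snhg20, the transcript around it, differed by -0.60 against delneo (adjusted p = 0.0675), by -0.57 against WT (adjusted p = 0.121) and, in HA against WT, by -0.44 (adjusted p = 0.218).

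Mir1949 lies inside another small nucleolar RNA host gene, Snhg4. It measured 4.60, 2.96, 4.43 and 4.10 in delHox samples, 5.24, 5.96, 5.70 and 5.96 in delneo samples and 5.64, 5.52, 5.30 and 5.89 in WT samples. The delHox samples lay below both, with delHox replicate 2 lowest. The log2 change was -1.69 ± 0.33 against delneo (limma adjusted p = 0.00263) and -1.57 ± 0.33 against WT (limma adjusted p = 0.00618). HA samples, at 3.83, 4.81, 4.87 and 5.15, also lay below WT, with a change of -0.92 that missed the threshold (limma adjusted p = 0.08). Snhg4 itself differed by 0.85 from delneo in delHox (adjusted p = 0.246).

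Mir3069 lies inside both Snhg10 and Scarna13, a small Cajal body RNA that guides chemical marks on spliceosomal RNA. It measured 3.36, 4.07, 3.57 and 2.59 in delHox samples and 4.68, 5.07, 4.67 and 4.81 in delneo samples, and the groups did not overlap. The log2 change was -1.41 ± 0.29 (SE, limma adjusted p = 0.00359). In HA against WT it was -0.94 (limma adjusted p = 0.0522). The probe of Scarna13 measured 5.55, 5.23, 5.19 and 5.33 in delHox samples and 6.06, 6.48, 6.16 and 6.31 in delneo samples, and Scarna13 fell by 0.93 against delneo (adjusted p = 0.00102) and, in HA, by 0.83 against WT (adjusted p = 0.00438). Snhg10 differed by 0.43 from delneo (adjusted p = 0.0987). Mir6516, Mir1949 and Mir3069 were the tested microRNA genes inside Snhg genes. They were set together after their values were seen, as a description.

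Mir7677, inside the inositol trisphosphate receptor gene Itpr3, measured 2.58, 3.01, 1.38 and 3.33 in delHox samples, 3.84, 4.12, 4.41 and 3.74 in delneo samples and 4.66, 3.85, 4.03 and 3.82 in WT samples. It was well above background on 0 delHox arrays and on all delneo and WT arrays, with no overlap. The fall in delHox was at least 1.376-fold against delneo (limma adjusted p = 0.00676) and at least 1.44-fold against WT (limma adjusted p = 0.0082). Itpr3 rose in the same samples, by 1.45 against delneo and 1.48 against WT (adjusted p = 0.0146 and 0.0225).

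Mir26a-2, which makes a well-studied hepatocyte microRNA that restrains the cell cycle, lies inside the phosphatase gene Ctdsp2. It measured 1.19, 2.07, 1.20 and 1.21 in delHox samples, 2.37, 1.19, 3.56 and 2.80 in delneo samples and 2.24, 3.91, 4.07 and 3.44 in WT samples. The delHox samples lay below WT (limma adjusted p = 0.0164) and overlapped with delneo (limma adjusted p = 0.104). The call was lost without WT replicate 3 or delHox replicate 3 and with the slide by file name as a block. Mir26a-2 was well above background on 0 delHox and 3 WT arrays, and no fold can be given, since the WT mean of 3.42 was no higher than the dimmest measurable signals. Mir26b, with the same seed, was well above background on all 16 arrays and differed by -0.57 in delHox against delneo (limma adjusted p = 0.0651). It is named outside the naming rule.

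Of the 3 Mir680 genes, which encode the same mature sequence, Mir680-1 and Mir680-2 fell in delHox against delneo. Mir680-2 measured 4.17, 4.79, 4.28 and 4.15 in delHox samples and 6.80, 5.55, 5.11 and 4.95 in delneo samples, with no overlap and delneo replicate 1 highest. The log2 change was -1.25 ± 0.31 (SE, limma adjusted p = 0.00968). Mir680-1 was well above background on 0 delHox and 2 delneo arrays, and was called lower in delHox with no fold given (limma adjusted p = 0.00929). Mir680-3 differed by -0.57 (limma adjusted p = 0.156). Against WT neither Mir680-1 nor Mir680-2 was called in delHox (limma adjusted p = 0.301 and 0.178).

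Mir682 was the only microRNA gene to rise in delHox against both WT and delneo, and among the brightest of all. It lies inside the pseudogene Gm4149. It measured 13.91, 13.68, 14.06 and 13.83 in delHox samples, 13.28, 13.27, 13.27 and 13.43 in delneo samples and 13.45, 13.67, 13.14 and 13.39 in WT samples. The delHox samples lay above both. The log2 change was 0.56 ± 0.12 against delneo (limma adjusted p = 0.00532) and 0.46 ± 0.12 against WT (limma adjusted p = 0.0231). HA samples, at 13.69, 13.77, 13.90 and 13.73, also lay above WT, with a change of 0.36 (limma adjusted p = 0.0706). With no scaling between arrays, the delHox changes were 0.66 (adjusted p = 0.0588) and 0.47 (adjusted p = 0.243), and the call against WT was lost without WT replicate 3 or 4 or delHox replicate 3. Mir504, inside Fgf13, was well above background on 2 delHox and 0 delneo arrays and was called higher in delHox (limma adjusted p = 0.0336). No fold is given, the groups overlapped, and Fgf13 fell by 0.99 (adjusted p = 0.0112). The call of Mir504 was lost on leaving out any of 5 samples, and with label-paired scanner files, normexp background correction, no filter or only the compared groups in the fit.

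**Figure D2:**
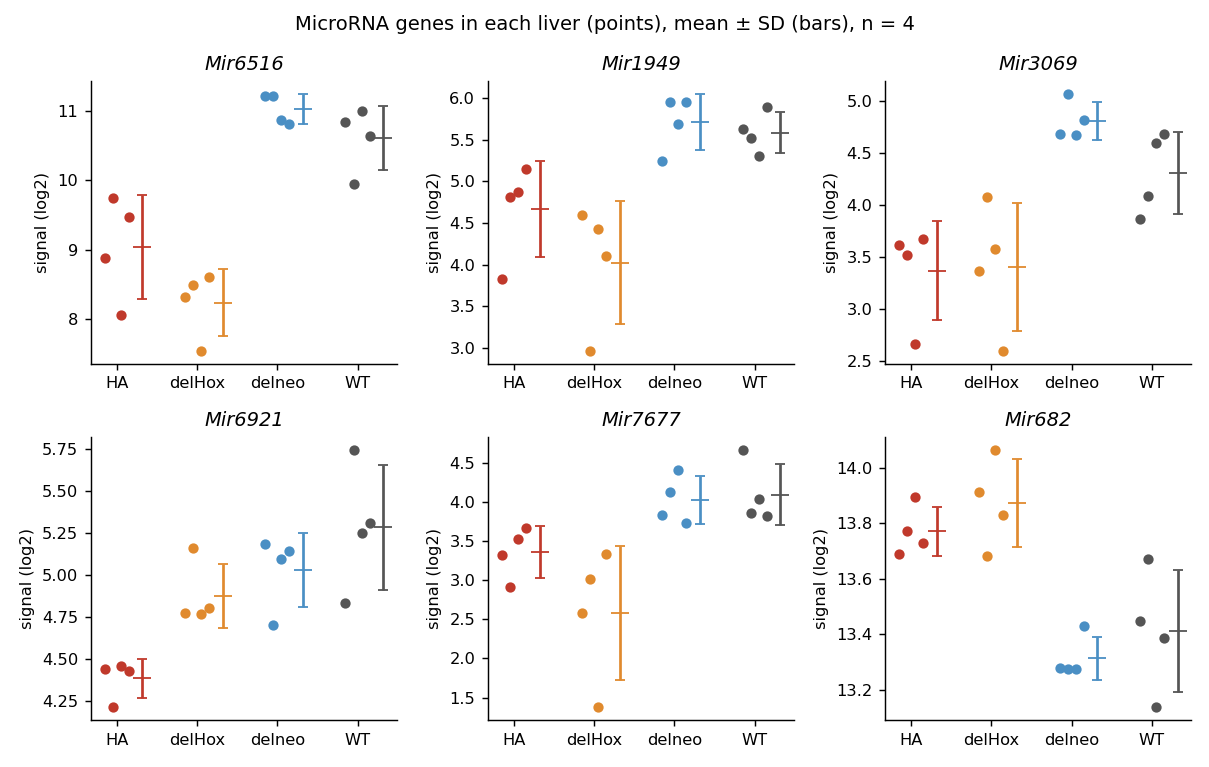
Log2 signal (vertical axes, each on its own scale) of 6 microRNA genes on every array, by genotype. Points are arrays and bars are mean ± SD of 4 arrays. For Mir6516 the delHox arrays (7.54 to 8.60) and HA arrays (8.05 to 9.75) lie below the delneo arrays (10.82 to 11.22) and WT arrays (9.95 to 10.995), and for Mir682 the HA and delHox arrays lie above.

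The other named falls were closer to background. Mir6339 measured 3.95, 3.48, 2.49 and 2.94 in delHox samples and 4.54, 4.02, 4.23 and 4.31 in delneo samples, without overlap, and was well above background on 0 delHox and 4 delneo arrays. It was at least 1.6-fold lower in delHox against delneo (limma adjusted p = 0.0104). Against WT, with 3 WT arrays well above background, it was at least 1.402-fold lower (limma adjusted p = 0.0433). The call against WT was lost on leaving out any of 10 samples and under most other settings, whereas the call against delneo held without any single sample. Mir669e, of a large rodent microRNA cluster, measured 3.25, 3.09, 3.70 and 2.50 in delHox samples and 4.92, 4.57, 4.70 and 5.03 in delneo samples, again without overlap, and fell by 1.67 (limma adjusted p = 0.0189). Without delHox replicate 4 that call was lost.

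Mir7672 was called lower in delHox against delneo (limma adjusted p = 0.0411), although the groups overlapped and only 2 delneo arrays were well above background. It measured 7.42 in delneo replicate 2, against 2.46 to 3.57 in the other delneo samples, so no fold is given. Without that sample it was not called (limma adjusted p = 0.0755), nor without any of 4 others. Mir219a-1, which makes a microRNA known from myelinating glia, measured 3.67, 2.98, 3.46 and 4.08 in HA samples, 3.43, 3.54, 3.83 and 3.79 in delHox samples and 4.08, 4.32, 4.58 and 4.26 in WT samples. It fell by 0.77 in HA against WT (limma adjusted p = 0.028) and by 0.67 in delHox against WT (limma adjusted p = 0.0419), and these calls were lost on leaving out any of 4 samples in HA against WT and of 9 samples in delHox against WT. Mir1668 fell by 0.75 in HA against WT (limma adjusted p = 0.0321). Mir6402, well above background on 0 HA and 2 WT arrays, was called lower with no fold given (limma adjusted p = 0.0243). Each of these calls was lost on leaving out any of 4 samples.

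The delHox counts also rested on few samples, as did those over all genes. The 4165 calls over all genes against WT were 7174 without WT replicate 2 and 2189 without delHox replicate 3. The 10948 against delneo were 5098 without delHox replicate 3. The counts of microRNA genes follow. Against WT the count of 12 was 43 without WT replicate 2, 25 without delHox replicate 2, and 4 without WT replicate 3 or delHox replicate 3. Against delneo the count of 62 was 25 without delHox replicate 3, 41 without delHox replicate 4 and 34 without delneo replicate 1. With the slide by label as a block, 30 fell and 1 rose against WT, and 72 fell and 3 rose against delneo. Of all 31484 genes, 2482 fell and 3089 rose against WT, and 7392 fell and 5489 rose against delneo. Slide 1 holds 1 delHox array. Within it the median of the microRNA genes was -0.12 against WT and -0.26 against delneo, beside -0.055 and -0.134 over all genes. Within slide 2, 6 microRNA genes fell against WT and 10 against delneo, beside 732 and 1162 of all genes. Both counts are near the background.

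HA against WT and delHox against delneo share no sample. Of their 17 and 60 falls, 4 were common (Mir6516, Mir2861, Mir7083 and Mir760), 23.53% of the first list and 6.667% of the second. Of all tested microRNA genes, 22.06% fell in delHox against delneo and 6.25% in HA against WT, so this overlap is near the background. Mir2861 and Mir7083 were also lower in delHox against WT. Except for Mir6516 these genes fell outside the naming rule and are named for the overlap. Mir2861, a bright probe, measured 8.79, 8.83, 8.75 and 8.97 in HA samples and 9.45, 9.55, 9.37 and 9.35 in WT samples, a change of -0.60 ± 0.13 (SE, limma adjusted p = 0.0114), and in delHox it changed by -0.51 against delneo (limma adjusted p = 0.0121). Its groups did not overlap in either comparison.

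Between the mutants, 0 microRNA genes were called. In HA against delHox, 0 were called at an adjusted p under 0.05 in limma (smallest adjusted p = 0.432), where 0.0127% of all genes were called. At an unadjusted p under 0.05 in limma there were 38, 13.97% of the microRNA genes, against 7.85% of all genes. The change of HA against WT differed from that of delHox against delneo for 0 microRNA genes (smallest limma adjusted p = 0.461), with 0.00318% of all genes called. An unadjusted limma p under 0.05 was reached by 25 microRNA genes, 9.191% of them, against 6.97% of all genes. For Mir6516 the difference of the 2 effects was 1.23 with a 95% interval of 0.23 to 2.22, not adjusted over genes, and an adjusted p of 0.645 in limma. Mir7035 was well above background on 0 HA and 4 delHox arrays. It was not called between these groups (limma adjusted p = 0.432), so no fold is given. The control lines also gave no call. In delneo against WT, 0 microRNA genes were called in limma (smallest adjusted p = 0.802), against 0.0222% of all genes, with a median of 0.05 against 0.02 over all genes. Here 11 microRNA genes, 4.044% of them, had an unadjusted limma p under 0.05, against 5.8% of all genes.

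The probes of the microRNA genes differ from other probes in base composition, and its part in their shift was not tested. The median GC content was 55.1% for the tested microRNA probes and 45.3% for the other genes tested, which include transcripts with no symbol. In HA against WT, genes other than microRNAs had a median change of 0.03 where the probe held under 45% GC, of -0.20 at 50 to 55% and of -0.27 at 60% or more. The microRNA genes in the same bands had medians of -0.16 (22 genes), -0.26 (72 genes) and -0.34 (90 genes), with -0.33 at 45 to 50% (42 genes). Across genes, Pearson r of log2 change and GC content was -0.06 over the 272 microRNA genes and -0.18 over other genes in HA against WT, 0.05 and -0.13 in delHox against WT, and -0.02 and -0.16 in delHox against delneo. These describe genes on shared arrays, which are not independent. In delHox against delneo, at 60% GC or more, 27.8% of microRNA genes fell, with a median of -0.31, and 31.1% of other genes, with a median of -0.33. At 45 to 50% GC the microRNA genes stood lower, with a median of -0.45 over 42 genes, against -0.17. When each array's trend with probe GC content was removed, a setting chosen after seeing the data, 6 microRNA genes fell and 2 rose in HA against WT, 5 fell and 1 rose in delHox against WT, and 20 fell and 2 rose in delHox against delneo. The 6, the 5 and 19 of the 20 were among those called before. Of all 31484 genes, 786, 1243 and 4074 fell and 2305, 2850 and 5158 rose, in the same order. A smaller share of microRNA genes than of all genes thus fell in each comparison. The medians of the microRNA genes were then -0.116, -0.118 and -0.098, against -0.031, -0.051 and -0.065 over all genes. Mir6516, Mir1949, Mir3069, Mir7677 and Mir6921 kept their calls, whereas Mir1668, Mir219a-1 and Mir7672 did not.

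**Figure D3:**
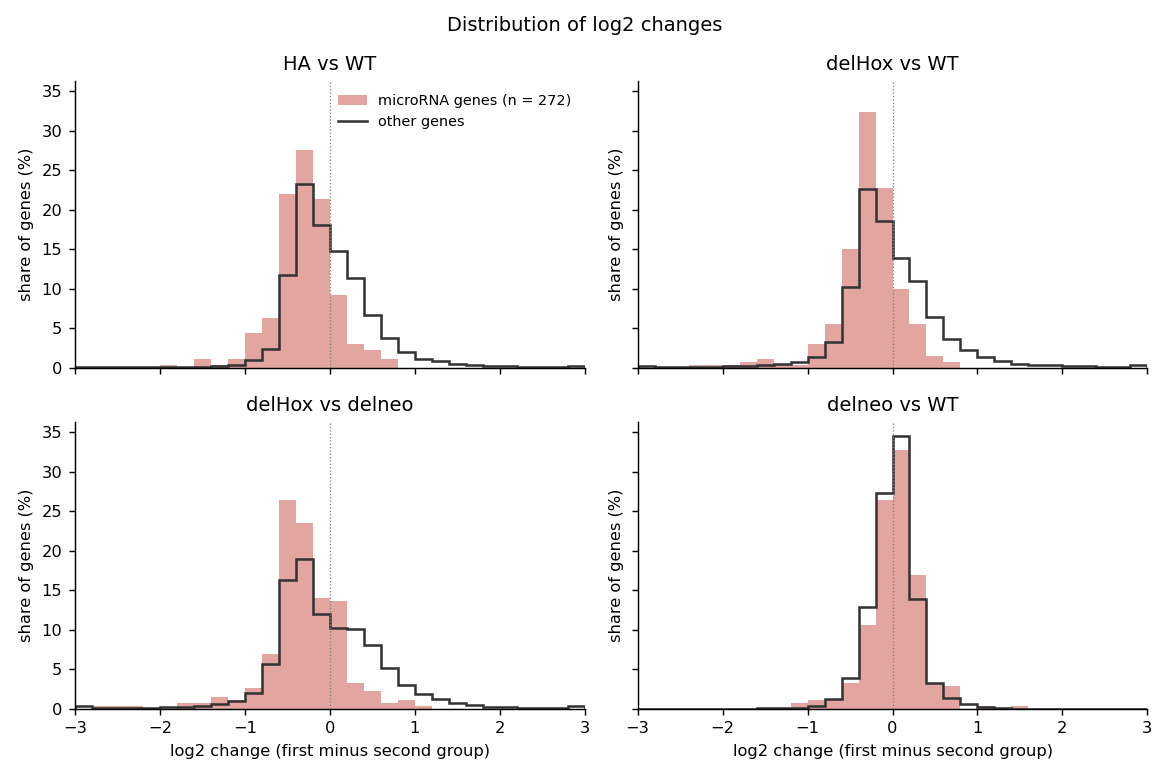
Share of genes (vertical axis, %) by log2 change (horizontal axis, first minus second group; changes beyond the axis are counted in the end bins) for 272 microRNA genes (filled) and all other genes tested (line). In HA against WT, delHox against WT and delHox against delneo the microRNA genes lie mostly below 0, with medians of -0.29, -0.27 and -0.32, and in delneo against WT around 0.

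**Figure D4:**
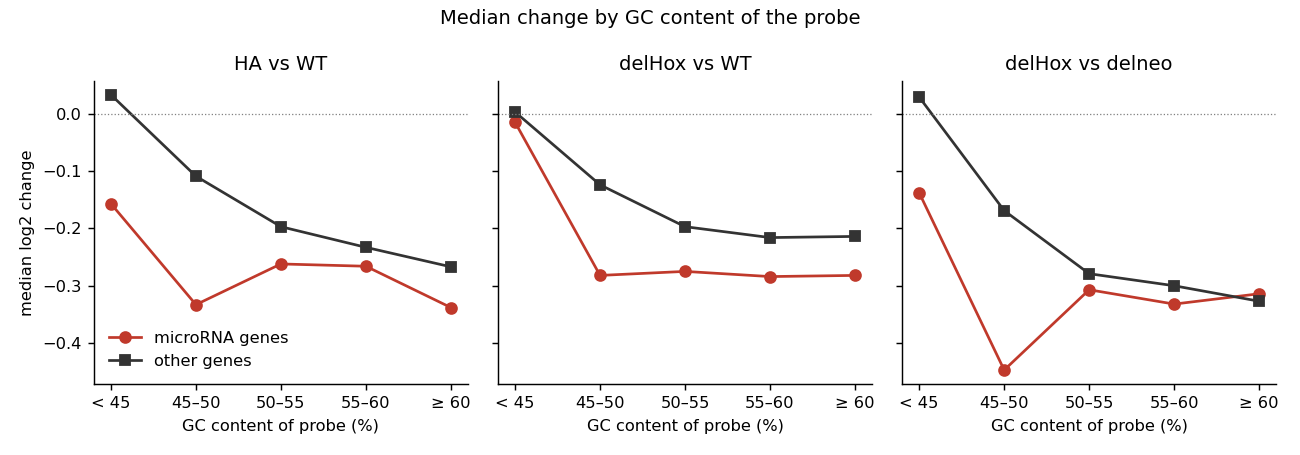
Median log2 change (vertical axis) of microRNA genes and of other genes by the GC content of the probe (horizontal axis, %). The medians of other genes fall from the band under 45% to that of 50 to 55%. Those of the microRNA genes are not graded, with the lowest, -0.45, at 45 to 50% in delHox against delneo, where the medians at 60% or more are -0.31 for microRNA genes and -0.33 for other genes.

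Other gene classes of the reference give a scale for these shifts. In HA against WT the median change was -0.29 for the microRNA genes, -0.90 for 83 small nucleolar RNA genes, -0.26 for 1916 lncRNA genes and 0.01 for 15131 protein-coding genes. In delHox against delneo it was -0.32 for the microRNA genes, -1.84 for the small nucleolar RNA genes, -0.37 for the lncRNA genes and 0.005 for the protein-coding genes. The shares that fell were 22.1%, 96.4%, 30.4% and 15.1% in that order. The probes of the lncRNA genes had a median GC content of 46.6%. No test was made between the classes.

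The share that fell varied with signal level, and not in the same way in each comparison. In delHox against delneo, 15 of the 27 microRNA genes with a mean log2 signal of 8 or more fell, 55.6% of them with a median of -0.46, against 22.5% and -0.03 for other genes as bright. Between 4 and 5, 8.96% of 67 microRNA genes fell, with a median of -0.15, against 12.8% and -0.16 for other genes. For HA against WT, 7.41% of microRNA genes fell at 8 or more, 10.8% between 6 and 8 and 0% between 5 and 6. The share was 10.4% between 4 and 5 and 4% below 4. Other genes had shares of 3.99%, 2.76%, 2.96%, 2.62% and 1.67% in the same order. The microRNA shares rest on few genes, with 2, 4, 0, 7 and 4 falls in that order.

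Most measurable microRNA genes lie in other genes. Of the 272, 222 lay inside another gene on the same or an unknown strand, and 145 inside a protein-coding gene on the same strand, 122 of which had a tested host. Over these 122 pairs the median change in delHox against delneo was -0.29 for the microRNA genes and 0.18 for the hosts, and in HA against WT -0.27 and 0.16. Across pairs the changes of microRNA gene and host showed little relation in delHox against delneo (Pearson r = -0.031, Spearman rho = -0.004) or in HA against WT (r = -0.113, rho = -0.019). These are descriptions across genes measured on the same arrays, and pairs are not independent replicates. Of 23 microRNA genes that fell in delHox against delneo with a tested host, the host fell for 2, rose for 7 and was not called for 14. Over all 122 pairs 9 hosts fell and 39 rose, so these counts are near the background. Of the 39 hosts that rose, the microRNA gene fell for 7, beside 23 falls over all 122 pairs, which is again near the background. The remaining 50 microRNA genes, some of them inside a gene on the opposite strand, had a median of -0.35 in delHox against delneo. It was -0.31 for the 222 inside another gene on the same or an unknown strand.

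**Figure D5:**
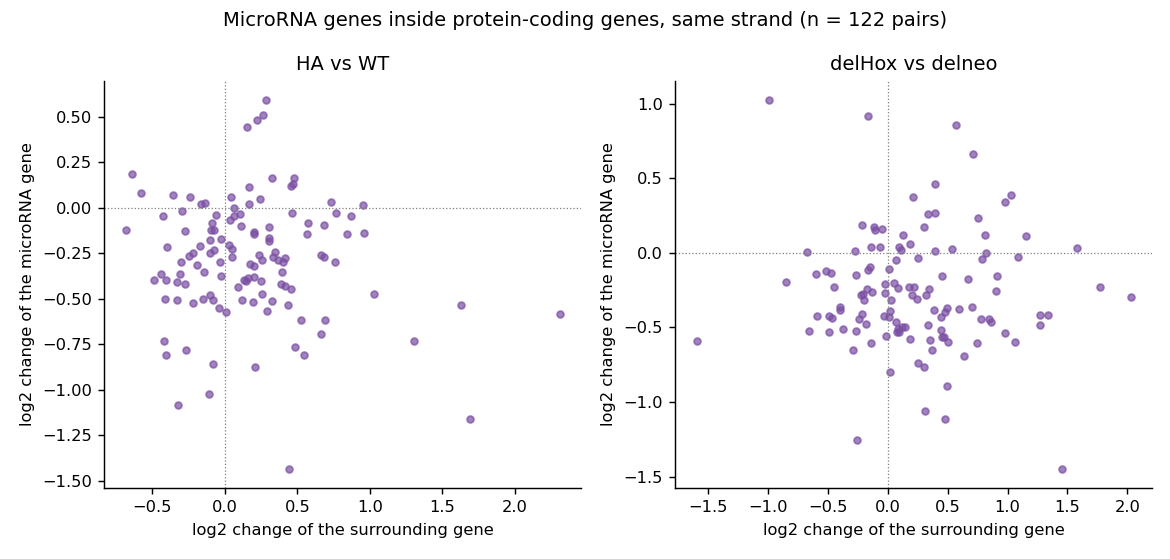
Log2 change of each microRNA gene (vertical axis) against that of the protein-coding gene around it on the same strand (horizontal axis), for HA against WT and delHox against delneo; each point is 1 of 122 pairs. Most points lie below 0 on the vertical axis (medians -0.27 and -0.29), and the hosts spread to both sides (medians 0.16 and 0.18).

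Of 25 genes that process microRNAs or act with them 19 were tested, and in delHox against delneo 7 rose and 1 fell, where 16.6% of all genes rose and 18.2% fell. The gene that fell was Lin28a, outside the naming rule, with a change of -0.58 (limma adjusted p = 0.0397). Drosha, the nuclear nuclease, rose by 0.46 (limma adjusted p = 0.0284), the export partner Ran by 1.03 (limma adjusted p = 0.00548) and the exonuclease Xrn2 by 0.45 (limma adjusted p = 0.0084). In HA against WT 2 of 19 rose, Ran by 0.77 and Xrn2 by 0.46 (limma adjusted p = 0.0441 and 0.0155), and 0 fell, and in delHox against WT 1 rose, Xrn2. Of all genes 7.08% and 8.85% rose in these comparisons, so both counts are near the background. Tnrc6c, which encodes a partner of the Argonaute proteins, differed by -0.37 in delHox against delneo (limma adjusted p = 0.0597). The median of the list was 0.22 in delHox against delneo, beside -0.14 for all genes and 0.005 for protein-coding genes. Of the protein-coding genes, 23.4% rose and 15.1% fell there.

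Of 15 genes known as Mir122 targets, 13 were tested. In HA against WT 3 rose and 0 fell, in delHox against WT 4 rose and 0 fell, and in delHox against delneo 6 rose and 1 fell, with medians of 0.09, 0.18 and 0.43. Over all genes 7.08%, 8.85% and 16.6% rose, with medians of -0.10, -0.11 and -0.14. Over protein-coding genes 10.3%, 12.5% and 23.4% rose, with medians of 0.009, -0.017 and 0.005. Klf6, a zinc finger transcription factor, rose by 2.59 in HA against WT and by 3.03 in delHox against delneo (limma adjusted p = 1.65e-05 and 3.56e-06). Iqgap1, a cytoskeletal scaffold, rose by 1.41 and 1.84 in the same order (limma adjusted p = 0.000673 and 5.26e-05), and the protease gene Adam10 by 0.79 and 1.04 (limma adjusted p = 0.0286 and 0.00315). Ccng1, cyclin G1, rose by 0.81 in delHox against delneo (limma adjusted p = 0.0044) and differed by 0.22 in HA against WT (limma adjusted p = 0.37). Mir122 itself was not measured well enough to set beside them.

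A list of 40 host genes of microRNAs shares some genes with the pairs above, Ctdsp2 and Clcn5 among them, and 32 were tested. Of these, 9 rose and 5 fell in delHox against delneo, and 3 rose and 0 fell in HA against WT. Over all genes 16.6% rose and 18.2% fell in delHox against delneo and 7.08% rose in HA against WT, so the falls and the HA count are near the background. Of protein-coding genes 23.4% rose and 15.1% fell in delHox against delneo, and 10.3% rose in HA against WT. Evl, the actin regulator around Mir342, rose by 1.66 in delHox against delneo (limma adjusted p = 0.0001), and Wwp2, the ubiquitin ligase around Mir140, by 1.16 (limma adjusted p = 0.000397). The chloride transporter gene Clcn5 rose by 1.03 (limma adjusted p = 0.000531). Rcl1, around Mir101b, fell by 0.71 (limma adjusted p = 0.00637), and Mir17hg, the primary transcript that holds Mir18, fell by 0.42 (limma adjusted p = 0.0334), while Mir18 differed by -0.33 (limma adjusted p = 0.228). Mir22hg, the primary transcript of Mir22, differed by -0.48 (limma adjusted p = 0.0887). Ctdsp2, around Mir26a-2, differed by 0.31 (limma adjusted p = 0.175).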

How the data were processed

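Liver RNA of 16 samples was labelled with Cy3 from a mix of random and oligo-dT primers and hybridised to a custom 1-colour Agilent array, per the labels' protocols. Agilent Feature Extraction 11 and Partek are named in the submitters' processing notes. The authors deposited log2 values, quantile normalised as the values show (every column has a median of 4.36), and scanner files with the processed signal intensity and a well-above-background flag per spot. Of 62976 spots, 1439 were controls and 0 were saturated.

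The deposited log2 values were tested with limma 3.58.1 in R 4.3.3, in one model of 4 groups over 16 arrays, with Benjamini-Hochberg adjustment. Probes were kept if well above background on 4 or more arrays (37819 of 60037), with the brightest probe per gene, which gave 31484 genes. Flags came from the files at the label's slide and position. Symbols came from RefSeq accessions. Of the probes, 36264 had 1 symbol, 0 had several and the rest had none, and 17666 tested genes had one. Named microRNA genes were the 8 called genes with the largest rise and the 8 with the largest fall in each comparison (all where fewer were called), plus the tested genes of a list of liver microRNAs, and of each other list the 4 genes with the smallest p in HA or delHox against WT, with the hosts of named genes. The members and lists were chosen with earlier results of these data known. The scripts were tested on simulated data. The small number of arrays limits the precision. Alternatives covered the values used, background correction, scaling, filter, slide, moderation, samples in the fit and, added after seeing the data, probe GC content.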

Additional observations from a re-analysis of the deposited data

Results flagged for a closer look

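In 7 of 88 groups of 4 samples checked for the named microRNA genes, 1 sample stood apart from the other samples by more than Dixon's 95% critical value, and chance marks about 1 in 20 groups. Mir1948 measured 2.75 in WT replicate 2, against 3.91 to 4.13 in the other WT samples. Mir26a-2 measured 2.07 in delHox replicate 2, against 1.19 to 1.21. Mir3069 measured 2.66 in HA replicate 3, against 3.52 to 3.67. Mir682 measured 13.43 in delneo replicate 4, against 13.27 to 13.28. Mir6921 measured 4.22 in HA replicate 2, against 4.43 to 4.46, and 5.16 in delHox replicate 2, against 4.77 to 4.81. Mir7672 measured 1.28 in HA replicate 1, against 2.91 to 3.23. These are log2 signals. What set these samples apart was not tested.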

How the results depend on the processing

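None of the 28 called changes of named genes turned direction under the alternatives run, but the balance of calls over the microRNA genes in HA against WT did: with no scaling between arrays 8 were higher and 2 lower, with a median of 0.15, against 0 higher and 17 lower, with a median of -0.29. Over all genes in HA against WT, 9416 were higher and 126 lower with no scaling, against 2230 and 936. With the scanner files as listed for each sample, the microRNA genes called were 0 in HA against WT, 0 in delHox against WT and 0 in delHox against delneo, where the deposited values gave 17, 12 and 62. The same files gave 5, 0 and 0 calls over all 31484 genes, where the deposited values gave 3166, 4165 and 10948. No scaling between arrays gave 9542, 2241 and 4365 calls over all genes. Removal of the trend with probe GC content (chosen after seeing the data) gave 3091, 4093 and 9232. The counts of microRNA genes, in both directions together, were 10, 4 and 11 with no scaling and 8, 6 and 22 with that trend removed. Within slide 1 the count was 0 in HA against WT, beside 14 of all genes. Within slide 2 the counts were 6 in delHox against WT and 10 in delHox against delneo, beside 2550 and 3503 of all genes. Slide 1 holds 1 delHox array and slide 2 holds 1 HA array, each assumed to vary like the other groups. With only the compared groups in the fit, 7 microRNA genes were called in HA against WT and 37 in delHox against delneo, beside 1826 and 8191 of all genes. With the slide by file name as a block, 11 microRNA genes were called in HA against WT and 1 in delHox against WT, beside 2108 and 1265 of all genes. The slide by label gave 31 in delHox against WT, beside 5571 of all genes. Leaving out each sample gave 1450 to 8021 calls over all genes in HA against WT, 2189 to 7174 in delHox against WT and 5098 to 12283 in delHox against delneo. The microRNA genes called were then 6 to 53, 4 to 43 and 25 to 77 in the same order. In delneo against WT, 1 was called without the filter on dim probes, and in HA against delHox, 3 within slide 2, where HA is 1 array. For the 6 samples whose listed file was not the label's file, its correlation with the deposited values was -0.300 to 0.168, each probe's mean removed. That of the label's file was 0.885 to 0.996. Beyond these mismatched files and the smaller sample numbers, what moved the counts was not tested. Of 28 called changes of named genes, 14 were lost with no scaling and 28 with the files as listed. The filter at 8 arrays gave 70 of 110 values, since it removed the dimmer genes. No paired analysis was possible because the labels give no replicate numbers shared between the groups. The array measured most of the 989 microRNA genes at or near background, which limits what can be said of them.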
